A study of Mus musculus with 6 samples.

Results

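The genes described here are nuclear-encoded genes of the mitochondrial respiratory chain and ATP synthase, taken by symbol. They are those starting with Nduf, Uqcr, Cox4i, Cox5, Cox6, Cox7, Cox8 or Atp5, and Sdha, Sdhb, Sdhc and Sdhd. Some chain genes, such as Cyc1, Usmg5 and Mp68, have other symbols and fall outside this rule. Counts and sums by complex therefore cover the matching symbols and not every nuclear-encoded subunit. Of 24063 symbols in the count table, 92 matched, and 89 of these had at least 10 reads summed over the 6 libraries. Ndufa4l2, with 22 reads, lay just inside this minimum, and Cox8c, with 7 reads, just outside it; Cox8b and Cox7b2 had no read. The 89 members comprise 36 subunits of complex I, 8 complex I assembly factors, 4 subunits of complex II, 8 of complex III, 17 of complex IV and 16 genes of complex V. The symbol Atp5sl, now called Dmac2, was placed with the complex I assembly factors, and Ndufa4 and its paralogue Ndufa4l2 with complex IV, where the Ndufa4 protein is found.

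RNA was sequenced from LSK cells, bone marrow cells that lack lineage markers and carry cKit and Sca1, a fraction holding haematopoietic stem cells and early progenitors. Arid2, whose deletion the labels give, encodes a subunit of the PBAF chromatin remodelling complex. The 3 libraries labelled knockout came from Arid2fl/fl:MxCre+ mice and the 3 control libraries from MxCre+ mice, all on a C57/BL6 background. Mice of both genotypes carried the Cre transgene, received pIpC at 6 to 8 weeks of age and gave marrow 6 weeks later. pIpC is a double-stranded RNA analogue that raises interferon, and the Mx1 promoter that drives this Cre responds to interferon in many tissues besides blood. The labels do not tie libraries to separate animals. A p-value here weighs the difference between the labels against the spread among libraries of the same label, which may be technical in part.

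Complexes I and II feed electrons from NADH and succinate to ubiquinone, complex III passes them to cytochrome c, and complex IV passes them to oxygen. Complexes I, III and IV pump protons across the inner mitochondrial membrane, and complex V, the ATP synthase, uses the returning protons to make ATP. Most subunits are encoded in the nucleus and a few in mitochondrial DNA, and haematopoietic stem cells are known for relying on respiration less than their dividing progeny do.

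Total reads ran from 12408966 to 28185678 per library. Levels are given as CPM, reads scaled to a common library total, with a TMM correction for library composition. Arid2 itself did not differ, at 156 ± 6.2 CPM (SD, n = 3) in the libraries labelled knockout and 155.8 ± 8.5 CPM (SD, n = 3) in controls (edgeR log2 fold change 0.00 with SE 0.06, adjusted p = 0.99). Counts over a whole gene do not show whether floxed exons are missing, so every direction given here is between the labels. By Xist and Y-linked genes, all 3 libraries labelled knockout and control 2 were female and controls 1 and 3 male, so the female part of the comparison rests on control 2. Of the 10 genes listed for the LSK gate, 4 were lower in the libraries labelled knockout and none higher; Kit did not pass the test, Ly6a, which encodes Sca1, was lower but low throughout (13.5 against 20.02 CPM), and Cd34 was lower. Some markers of other cells differed too. Of the 12 neutrophil genes 5 were higher (summed 7190 to 9211 CPM against 2979 to 5755), of the 10 monocyte and macrophage genes 7 (2659 to 2824 against 1457 to 2008) and of the 10 erythroblast genes 6 (472 to 916 against 419 to 710). Lower were 3 of 6 megakaryocyte genes (142 to 236 against 244 to 348) and 2 of 5 mast cell and basophil genes (139 to 275 against 195 to 547). Of the B and plasma cell genes 1 of 7 was lower (46.5 to 55.0 against 52.7 to 66.6). Of the T and NK cell genes 1 of 8 was lower, although the summed range lay higher (251 to 318 against 210 to 278). Sums cover untested genes of a list too. Of all symbols tested, 3.85% were higher and 4.58% lower. No gene of these marker lists was at 0 in every library. In bulk RNA of sorted cells, a change in the number of cells of a type and a change in RNA per cell cannot be told apart, and the part of these markers in the values below was not tested.

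The promoters of 3 members are shown first, because they belong to isoform pairs whose levels are described below: the 250 bases before the start of Cox6b1 and of Cox6b2, the general and the testis isoform of the same complex IV subunit, and of Cox6a1, the general isoform whose heart and muscle counterpart is Cox6a2. Capitals mark matches, on either strand, to CCGGAAG (the core bound by ETS factors such as GABPA) or to GCGCATGCG (from the palindrome bound by NRF1). Both factors are known regulators of nuclear respiratory genes. Sequences are 5′ to 3′ on the strand of the gene, from RefSeq on GRCm38.p6.
Cox6b1, chr7:30626115-30626364, minus strand: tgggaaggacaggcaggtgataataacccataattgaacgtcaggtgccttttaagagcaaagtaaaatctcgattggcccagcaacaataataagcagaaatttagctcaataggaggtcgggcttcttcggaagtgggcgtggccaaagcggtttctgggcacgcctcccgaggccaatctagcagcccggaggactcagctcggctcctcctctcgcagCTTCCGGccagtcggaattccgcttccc
Cox6b2, chr7:4753095-4753344, minus strand: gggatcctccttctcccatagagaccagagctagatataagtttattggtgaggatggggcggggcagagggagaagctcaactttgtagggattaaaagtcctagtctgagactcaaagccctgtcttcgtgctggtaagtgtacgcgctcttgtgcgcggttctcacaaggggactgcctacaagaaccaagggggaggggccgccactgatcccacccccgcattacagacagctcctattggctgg
Cox6a1, chr5:115348959-115349208, minus strand: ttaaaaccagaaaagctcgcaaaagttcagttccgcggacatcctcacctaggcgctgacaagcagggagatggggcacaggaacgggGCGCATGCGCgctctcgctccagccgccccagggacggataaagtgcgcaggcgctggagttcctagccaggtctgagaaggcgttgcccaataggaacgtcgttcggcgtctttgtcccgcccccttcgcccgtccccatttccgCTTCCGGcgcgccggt
Cox6b1 held 1 ETS match, which begins 28 bases before its start, Cox6a1 held 1 ETS match and the full NRF1 palindrome, which matches on both strands, and the Cox6b2 window held neither.

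Windows from 250 bases before to 50 bases after a start were at hand for 74 of the 89 members and were searched on both strands. A CCGGAAG match was in a window of 17 of the 74 members (23.0%) and of 19.5% of the 10754 tested symbols with a window. GCGCATGCG was in 10 members (13.5%) and in 3.92% of tested symbols. AAGATGGCG, the letters bound by YY1, was in 8 members (10.8%) and in 3.42% of tested symbols; its first 3 letters can be the last 3 of an ETS match. Any of the 3 motifs was in 30 members (40.5%) against 25.1% of tested symbols. Over all 32851 windows the shares were 8.86%, 1.75% and 1.40% for CCGGAAG, GCGCATGCG and AAGATGGCG, and a gene can have several windows. By class, any match was in 11 of 32 complex I subunits, 4 of 7 assembly factors, 2 of 3 complex II, 3 of 5 complex III, 3 of 12 complex IV and 7 of 15 complex V genes. The 3 complex IV genes were Cox6a1, Cox6b1 and Cox8a, so the printed windows do not stand for the complex. Windows of other general subunits, such as Cox5a, Cox7a2 and Ndufa4, held no match. A match of letters is a description of the window and not evidence of binding.

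The respiratory chain genes were among the more abundant transcripts of LSK cells. Levels between genes are compared per length, as CPM per kilobase of transcript averaged over the 6 libraries, and the percentile is that among all tested symbols. The median was 103 CPM per kilobase over the 89 members and 12.4 over all tested symbols. Complex V had the highest class median (173), followed by complex III (151), complex IV (119), complex II (96.3) and complex I (85.1), while the complex I assembly factors, which help build the complex and are not part of it, had 13.1.

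**Figure D1:**
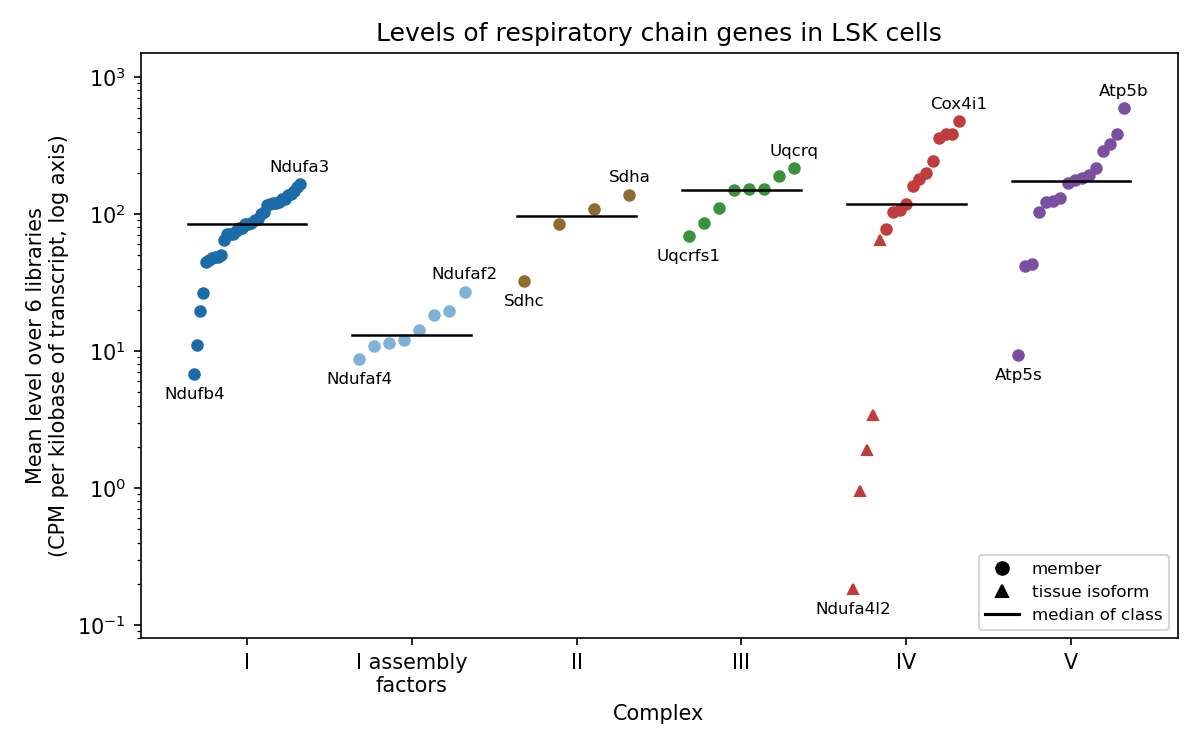
Mean level of each of the 89 genes over the 6 libraries, in CPM per kilobase of transcript on a log axis, by complex; bars mark class medians and triangles the tissue isoforms of complex IV. Assembly factors have a median of 13.1, 4 of the 5 isoforms lie at or below 3.44, and Atp5b is highest at 593.

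Atp5b, the catalytic beta subunit of ATP synthase, was the highest of all at 593 CPM per kilobase (percentile 99.2), and Cox4i1, a nuclear subunit of complex IV, followed at 476 (percentile 99.1). The next were Atp5a1 (384), the alpha subunit, Cox6a1 (384) and Ndufa4 (383). In complex I the highest was Ndufa3 (165), an accessory subunit, and the lowest Ndufb4 (6.75, percentile 35.0). In complex II, Sdha, the flavoprotein that oxidises succinate, had 138, the membrane anchor Sdhd 109, the iron-sulphur subunit Sdhb 84 and the other anchor Sdhc 32.5. Complex III ran from 69.2 for Uqcrfs1, the Rieske iron-sulphur protein, to 216 for Uqcrq. The assembly factors ran from 8.74 for Ndufaf4 to 27.1 for Ndufaf2.

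Some low levels belong to genes with near-identical copies elsewhere in the genome, whose reads the counting could have split or dropped. Of the 76 members that are neither assembly factors nor tissue isoforms, 16 had a copy of at least 97% identity over at least 30% of the transcript, and these had a median of 91.2 CPM per kilobase against 120.4 in the other 60. Ndufb4 (copy Ndufb4c over 40.2% of the transcript), Ndufs5 (BC002163, 53.3%), Atp5l (4 pseudogenes, 57.4%) and Atp5g2 (2 pseudogenes, 100%) were among them. Levels of these genes are uncertain for this reason. Opposite-strand exons cover 65.7% of the exons of Ndufaf2, and how strand was used in counting is not given, so its level is uncertain as well.

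No respiratory chain gene passed the test for a difference between the labels. Of the 87 members that passed the filter on low counts, 0 were called by edgeR at an adjusted p under 0.05, where 8.42% of all 13679 tested symbols were called (3.85% above and 4.58% below controls). Cox4i2 and Ndufa4l2, with 74 and 22 reads, did not pass the filter. At an unadjusted p under 0.05 there were 8 members, 4 higher and 4 lower, against 24.9% of all symbols. DESeq2 called 2 members, Ndufaf7 and Cox6a2, against 11.7% of the symbols it tested, and limma-voom 1, Ndufaf7, against 8.06%. The groups did not overlap in 15 members (17.2%), against 31.2% of all symbols.

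Apart from a few genes, the fold changes were small in every complex. Over the 87 members the median log2 fold change was 0.00 with quartiles of −0.07 and 0.05, against 0.00 with quartiles of −0.14 and 0.15 over all symbols; 44 values were above 0 and 43 below. The 95% confidence interval of the ratio lay within 1.25-fold either way for 63 members (72.4%), against 35.0% of all symbols, and within 1.5-fold for 84, against 63.1% of all symbols. Members had smaller standard errors than symbols in general (median 0.08 against 0.11) and were more abundant. The 3 members whose interval reached past 1.5-fold were Cox6a2, Cox6b2 and Cox7a1, all tissue isoforms of complex IV.

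**Figure D2:**
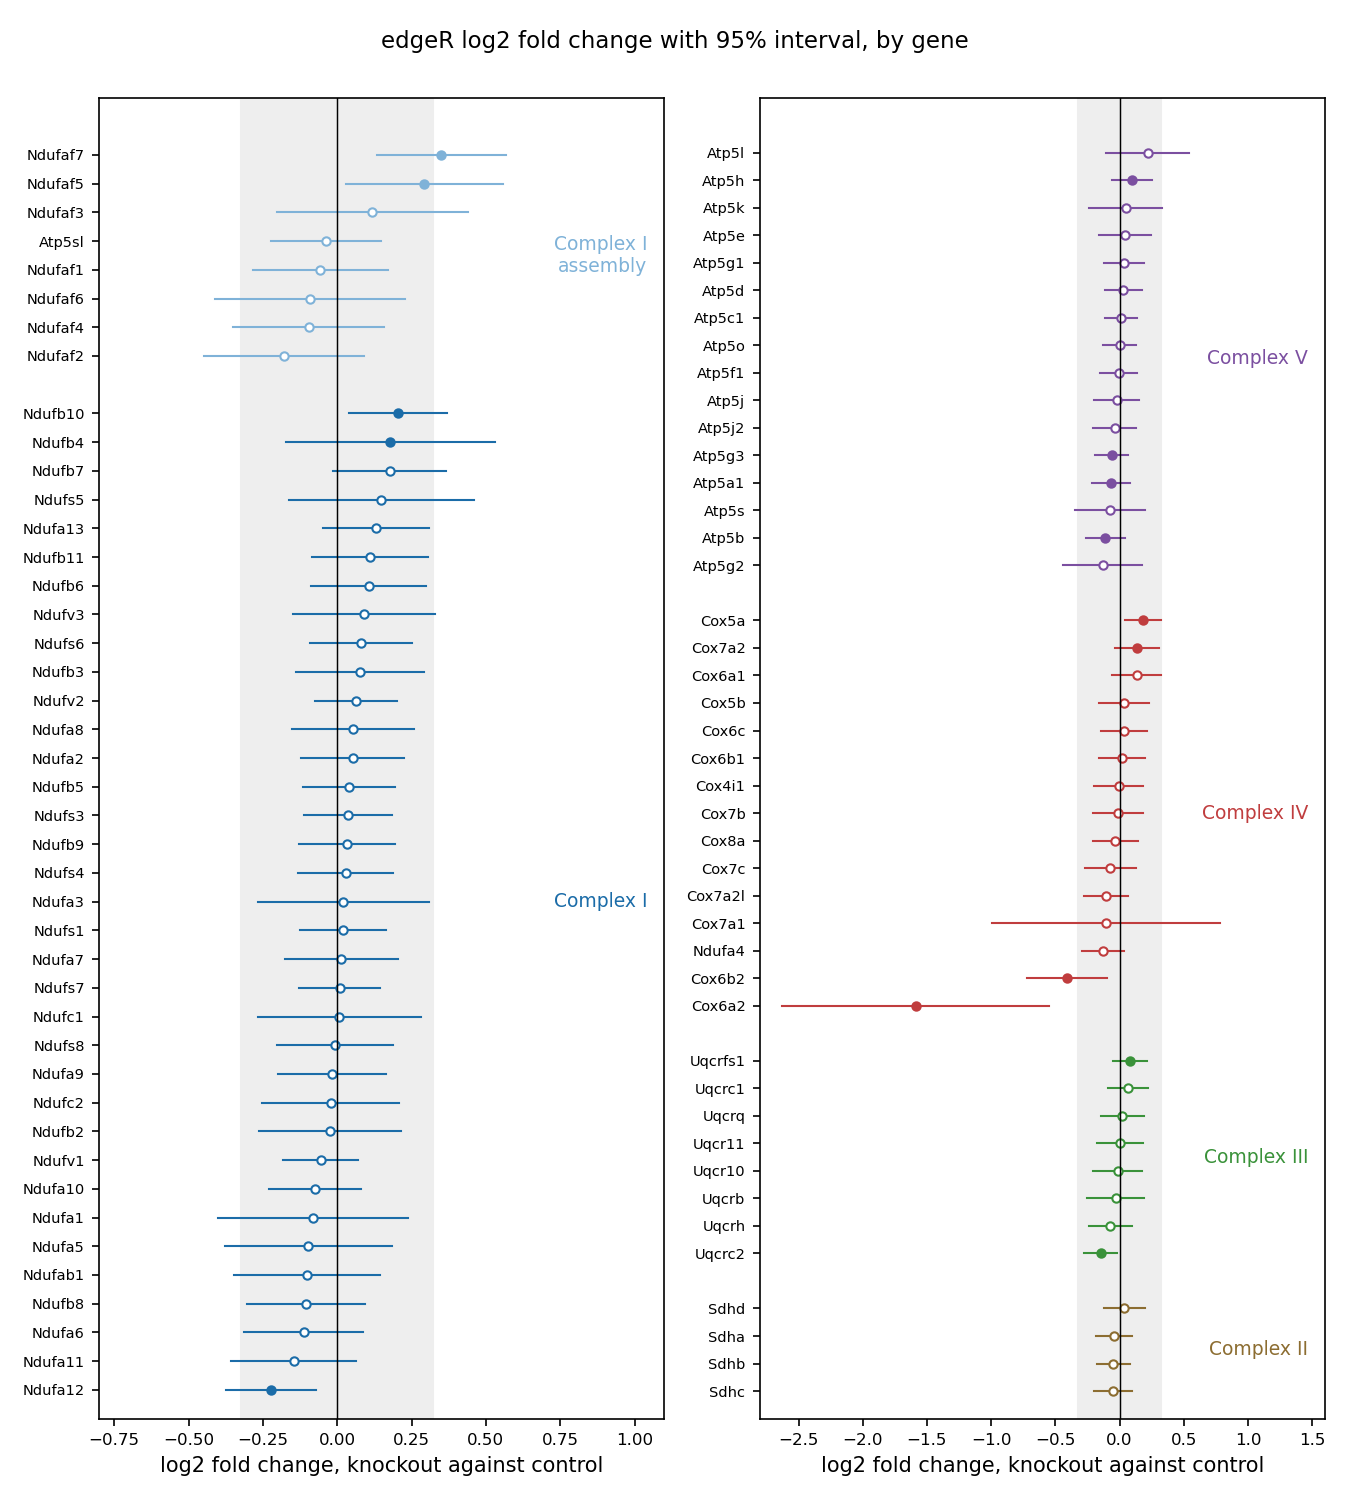
edgeR log2 fold change (libraries labelled knockout against control) with its 95% confidence interval for the tested genes reported individually here, grouped by complex; the grey band spans 1.25-fold either way, filled points mark genes whose groups do not overlap, and the horizontal scales of the panels differ. Most intervals stay inside the band, and Cox6a2 (−1.59) lies farthest from 0.

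Summed over all members, the libraries labelled knockout had 10172, 10056 and 9800 CPM and the control libraries 10592, 10188 and 9580 CPM. The sum was 98.9% of the control mean, and the knockout values lay inside the range of the controls. Complex I summed to 2703 ± 92.7 against 2675 ± 178 CPM, complex II to 726 ± 9.2 against 741 ± 33.1, and complex III to 888 ± 14.5 against 893 ± 38.6 (SD, n = 3 each). Complex IV summed to 1856 ± 73.9 against 1850 ± 131 CPM and complex V to 3643 ± 18.6 against 3771 ± 129. For complexes I to V each difference was within 1 SD of the control libraries, for complex V only narrowly. The assembly factors summed to 194 ± 3.5 against 189 ± 3.1 CPM, a difference larger than 1 SD of the control libraries. Groups overlapped in every class.

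**Figure D3:**
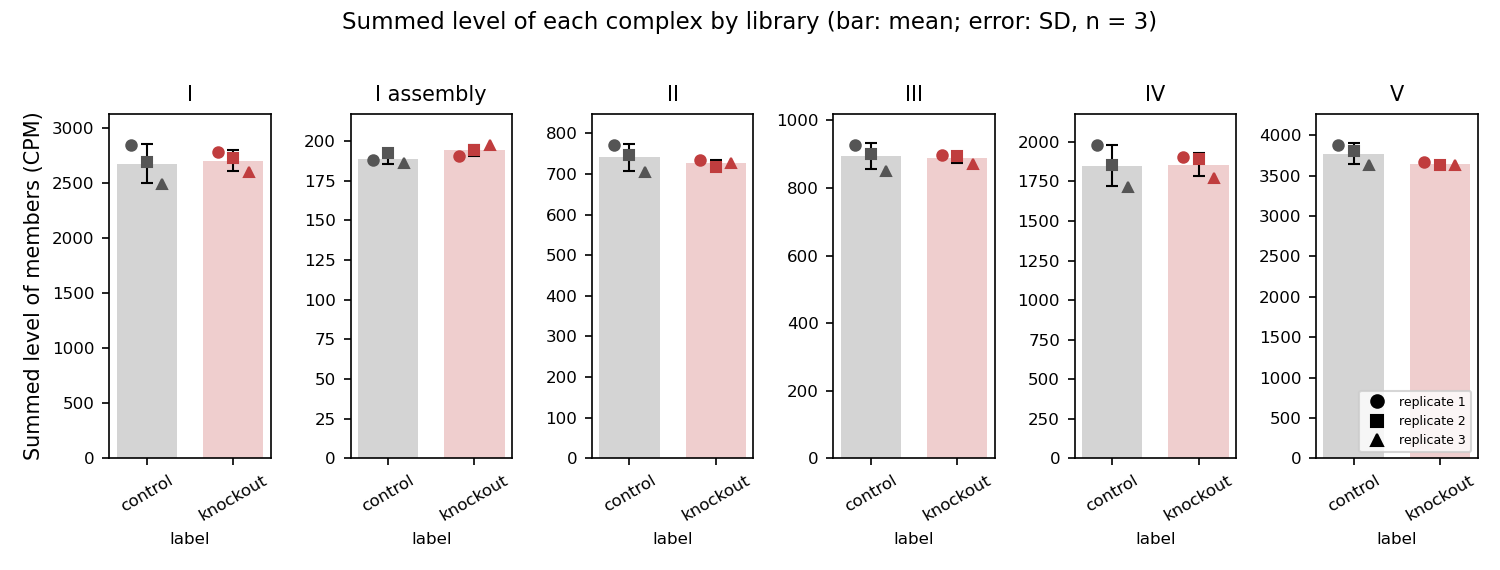
Summed CPM of the members of each complex in each library; bars are group means, error bars the SD of 3 libraries, and symbols the replicate numbers. Groups overlap in every panel, and control 1 is the highest and control 3 the lowest library for the sums of complexes I to V.

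In complex I, which oxidises NADH, 22 of 36 subunits had a log2 fold change above 0 and 14 below (median 0.02), and 26 had an interval within 1.25-fold. The 7 core subunits, which hold the flavin and the iron-sulphur clusters, ran from −0.06 to 0.06, and all 7 intervals stayed within 1.25-fold. Ndufs1, the largest of them, had 116.5, 108.4 and 122.1 CPM in the libraries labelled knockout and 113.5, 113.8 and 114.7 CPM in controls. Those groups overlap throughout. Accessory subunits, which surround the core, held the lowest p-values of the complex.

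Ndufa12, an accessory subunit of the peripheral arm (chromosome 10, 94198720 to 94221443, plus strand, mm10), had 48.6, 50.4 and 49.3 CPM in the libraries labelled knockout and 61.1, 55.7 and 56.3 CPM in controls. Every knockout value was below every control value. The log2 fold change was −0.22 (SE 0.07) and did not pass the test (edgeR adjusted p = 0.0789). Part of its transcript has a near-identical copy. Ndufb10, an accessory subunit of the membrane arm (chromosome 17, 24722060 to 24724478, minus strand), had 112, 109 and 107 CPM against 97.7, 100.2 and 85.8 CPM. All 3 knockout values were above the controls, by 0.20 on the log2 scale (SE 0.07, edgeR adjusted p = 0.12). Ndufb4 did not overlap between the groups either, at 6.9 to 7.1 against 5.7 to 6.4 CPM, with a log2 fold change of 0.18 and a wider SE of 0.15.

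The assembly factors of complex I held the lowest p of all members. Ndufaf7, a methyltransferase that acts during assembly of the complex (chromosome 17, 78937136 to 78948052, plus strand), had 40.5, 36.8 and 37.2 CPM in the libraries labelled knockout and 33.3, 27.96 and 28.7 CPM in controls. The groups did not overlap. The ratio was 127% with a 95% interval of 110% to 148% (edgeR log2 fold change 0.35 with SE 0.09, adjusted p = 0.0577). Over the 14 alternative fits its adjusted p ran from 0.0182 to 0.239 and its log2 fold change from 0.31 to 0.45, and 4 of them called it. With sex as a term, a fit that rests on 1 female control, the log2 fold change was 0.45 and the gene was not called.

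Ndufaf5, which hydroxylates the core subunit Ndufs7 and was picked after its values were seen (chromosome 2, 140170649 to 140203689, plus strand), had 13.9, 14.4 and 15.4 CPM against 12.2, 12.3 and 11.2 CPM. It was higher in 3 of 3 libraries, with a log2 fold change of 0.29 (SE 0.12, edgeR adjusted p = 0.157). The other 6 factors had overlapping groups and ran from −0.18 (Ndufaf2, which stays on a late assembly intermediate) to 0.12 (Ndufaf3). Ndufaf4 had a log2 fold change of −0.10. At the lower levels of these genes, 2 of the 8 intervals lay within 1.25-fold.

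In complex II all 4 genes had intervals within 1.25-fold. Sdha had 396, 394 and 394 CPM in the libraries labelled knockout and 424, 411 and 384 CPM in controls (edgeR log2 fold change −0.04 with SE 0.06, adjusted p = 0.727). Control values lay on both sides of the knockout values. Sdhb (log2 fold change −0.05), Sdhc (−0.05) and Sdhd (0.04) had overlapping groups as well.

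In complex III all 8 intervals were within 1.25-fold, and the log2 fold changes ran from −0.15 to 0.08. Uqcrc2, a core protein of the complex (chromosome 7, 120635176 to 120659524, plus strand), had 158, 152 and 159 CPM against 177, 168 and 174 CPM. Exons of Pdzd9 on the opposite strand cover 19.8% of its exons. All 3 knockout values were below all 3 controls (edgeR log2 fold change −0.15 with SE 0.06, adjusted p = 0.15). Uqcrfs1, whose iron-sulphur cluster takes the first electron from ubiquinol, was at 96.0, 97.8 and 96.9 CPM against 88.2, 91.7 and 95.1 CPM, also without overlap (edgeR log2 fold change 0.08 with SE 0.06, adjusted p = 0.436). Uqcrq had a log2 fold change of 0.02 with overlapping groups.

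In complex IV, 15 of 17 genes were tested, with 6 log2 fold changes above 0 and 9 below. Cox5a, a subunit on the matrix side (chromosome 9, 57521274 to 57532426, plus strand), had 141, 134 and 138 CPM in the libraries labelled knockout and 124, 125 and 114 CPM in controls. Exons of Gm26631 on the opposite strand cover 12.8% of the exons of Cox5a. The groups did not overlap, and the ratio was 114% with a 95% interval of 103% to 125% (edgeR adjusted p = 0.102). Cox7a2 did not overlap either, at 79.8 to 85.7 against 67.3 to 78.5 CPM (edgeR log2 fold change 0.14 with SE 0.08, adjusted p = 0.319). Cox4i1, the most abundant subunit per length, had 359, 365 and 337 against 385, 365 and 316 CPM, and a log2 fold change of −0.01.

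Among the tested genes of complex IV, the 2 lowest log2 fold changes were those of the tissue isoforms Cox6a2 and Cox6b2. Cox6a2, the heart and muscle isoform (chromosome 7, 128205435 to 128206387, minus strand), had 0.79, 1.86 and 0.72 CPM in the libraries labelled knockout and 5.35, 3.16 and 2.14 CPM in controls, on 277 reads in all. The groups did not overlap, but the highest knockout value was close to the lowest control value. The ratio was 33.3% with a 95% interval of 16.2% to 68.5% (edgeR log2 fold change −1.59 with SE 0.46, adjusted p = 0.069). Over the 14 alternative fits the adjusted p ran from 0.0123 to 0.429 and the log2 fold change from −2.21 to −1.19. Without control 3 the value was −1.83 and passed the test (adjusted p = 0.0461), without knockout 2 it was −2.21 (adjusted p = 0.0697), and with sex as a term it was −1.42 (adjusted p = 0.429). Exons of Itgad on the opposite strand cover 10.3% of the exons of Cox6a2.

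Cox6b2, the testis isoform (chromosome 7, 4751792 to 4753094, minus strand), had 25.4, 32.6 and 33.5 CPM against 37.4, 37.0 and 47.0 CPM. The groups did not overlap (edgeR log2 fold change −0.41 with SE 0.14, adjusted p = 0.105), and control 3 was the highest library. The adjusted p ran from 0.0236 to 0.623 over the 14 alternatives, and the log2 fold change from −0.48 to −0.28. With sex as a term it was −0.28 (adjusted p = 0.623).

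**Figure D4:**
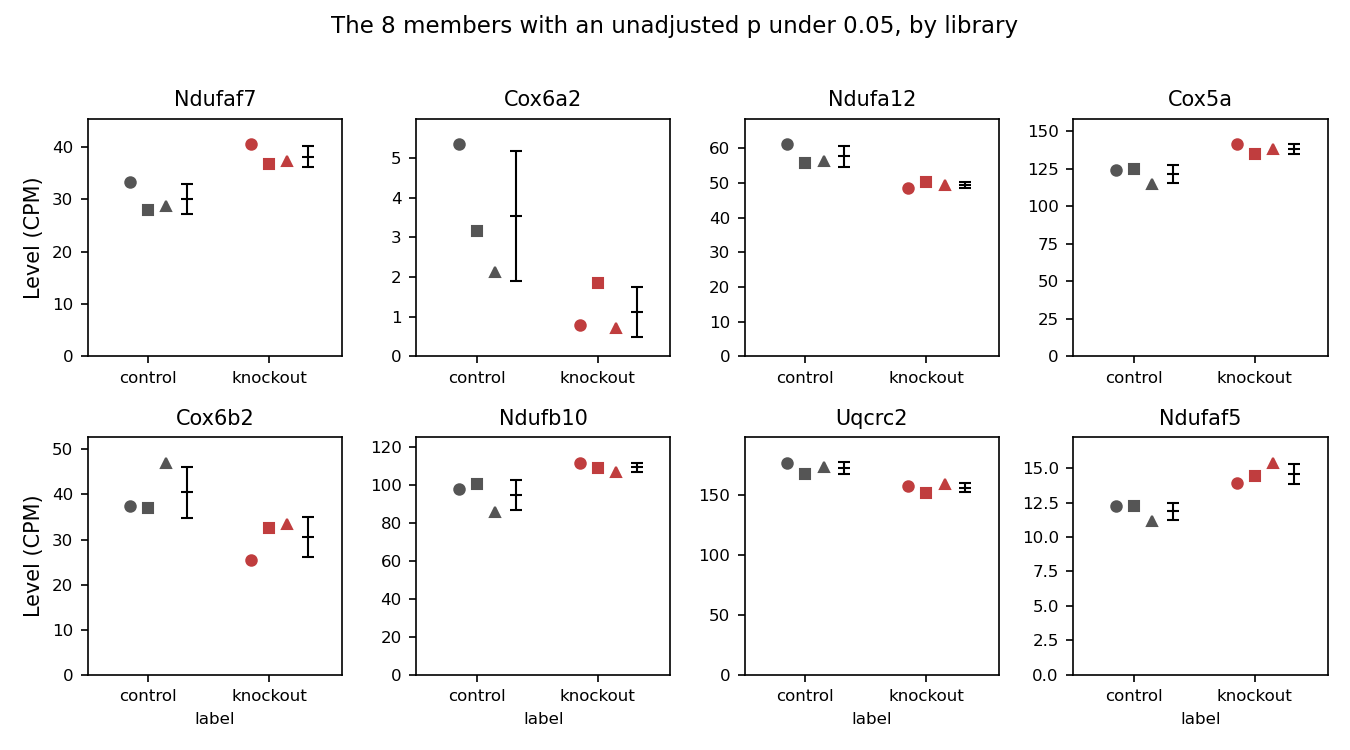
CPM by library of the 8 genes with an unadjusted p under 0.05, each panel starting at 0; marker shapes are the replicate numbers, and bars the mean and SD of 3 libraries. In all 8 the groups do not overlap; Ndufaf7, Cox5a, Ndufb10 and Ndufaf5 are above the controls and the other 4 below.

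The general isoform was the main transcript of every complex IV pair, in shares of the pair's summed CPM per kilobase. Cox6a2 made up 0.41% ± 0.24 of its pair in the libraries labelled knockout and 1.37% ± 0.47 in controls (SD, n = 3 each), and the rest was Cox6a1. Cox6b2 made up 18.5% ± 3.4 against 23.2% ± 3.3, so in LSK cells of both labels it was a sizeable part of its pair; at 64.2 CPM per kilobase it stood at percentile 89.3 of all tested symbols. The shares of Cox6a2 did not overlap between the groups and those of Cox6b2 did.

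Cox4i2, known from lung, had 0.26, 0.52 and 0.32 CPM against 1.11, 0.43 and 1.52 CPM, and was 0.107% against 0.301% of its pair with Cox4i1. Its groups overlapped, and with no filter on low counts its log2 fold change was −1.35 (SE 0.58, edgeR adjusted p = 0.201). Cox7a1, the muscle isoform, had 88 reads and 0.82% against 0.86% of the trio with Cox7a2 and Cox7a2l. Cox7a2l, a factor that joins complexes III and IV into supercomplexes, was 44.7% ± 2.0 against 48.9% ± 3.6 of that trio, with overlapping groups. Cox8a stood alone, with Cox8b at no read and Cox8c at 5, 2 and 0 reads in the libraries labelled knockout and none in controls. Ndufa4 (edgeR log2 fold change −0.13, adjusted p = 0.303) had over 99.9% of its pair with Ndufa4l2, a gene known to rise in hypoxia.

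**Figure D5:**
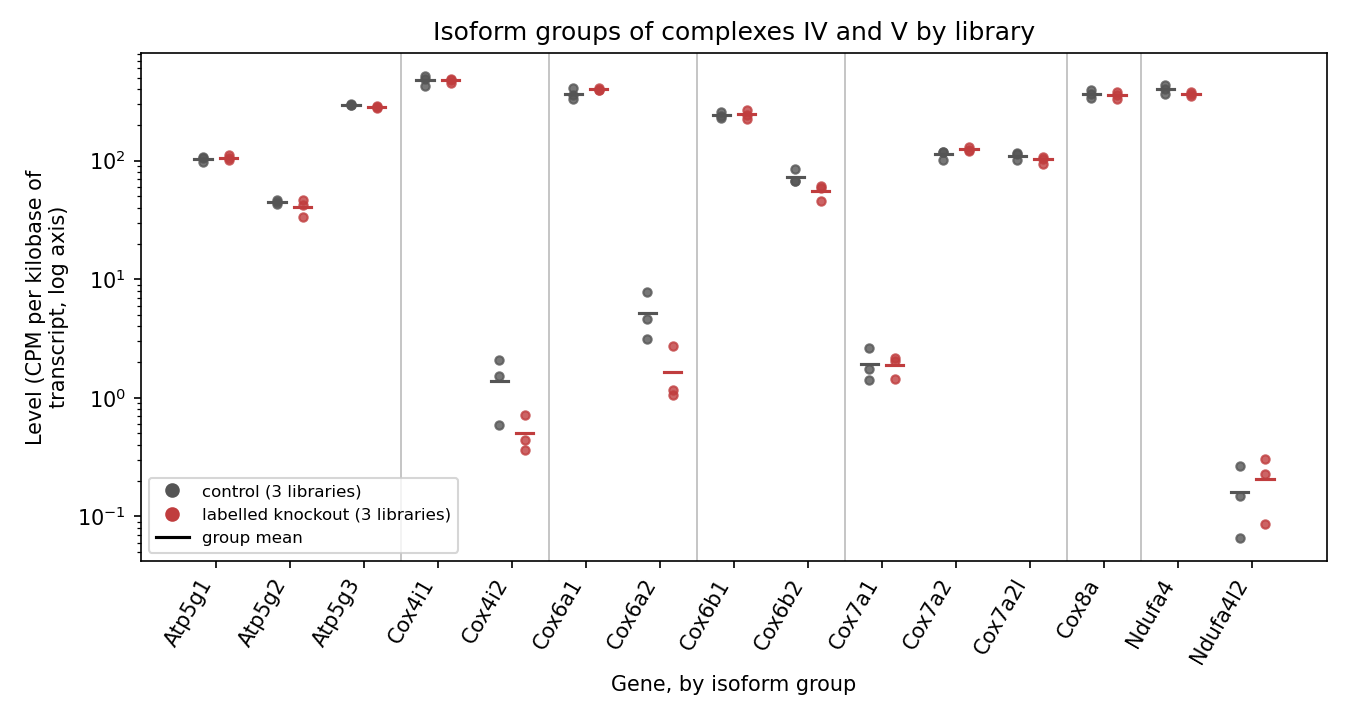
CPM per kilobase of transcript of the isoform groups in each library, on a log axis, with group means as bars. Cox6a2, Cox4i2, Cox7a1 and Ndufa4l2 lie far below their general counterparts in both groups, whereas Cox6b2 (55.2 in the libraries labelled knockout, 73.2 in controls) lies closer to Cox6b1.

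In complex V, 8 of 16 genes were above 0 and 8 below (median 0.00), none had an unadjusted p under 0.05, and 12 intervals lay within 1.25-fold. The 2 subunits that form the catalytic ring had every knockout value below every control value. Atp5b had 1084, 1077 and 1116 CPM against 1206, 1194 and 1140 CPM, and Atp5a1 951, 897 and 935 against 993, 970 and 954 CPM. Their log2 fold changes were −0.11 (SE 0.07, edgeR adjusted p = 0.344) and −0.07 (SE 0.07, adjusted p = 0.573). The other F1 subunits, Atp5c1, Atp5d and Atp5e, ran from 0.01 to 0.04. Atp5h, a subunit of the stator stalk, did not overlap either, at 83.1 to 86.5 against 72.7 to 83.0 CPM (log2 fold change 0.10, SE 0.07). Its lowest knockout value was very close to its highest control value, and a near-identical copy covers 77.6% of its transcript.

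Subunit c, which forms the rotor ring in the membrane, is encoded by 3 genes with the same mature protein. Near-identical copies cover 59.5% of the Atp5g1 transcript and 100% of the Atp5g2 transcript. None was found for Atp5g3, so the shares of the 3 genes are uncertain. Atp5g3 gave 66.0% ± 1.7 of their summed CPM per kilobase in the libraries labelled knockout and 66.8% ± 0.75 in controls, Atp5g1 24.5% ± 0.44 against 23.1% ± 0.94, and Atp5g2 9.5% ± 1.5 against 10.1% ± 0.59 (SD, n = 3 each). Log2 fold changes were −0.06, 0.03 and −0.13, and none passed the test (edgeR adjusted p = 0.534, 0.794 and 0.592). As in Atp5b and Atp5a1, every knockout value of Atp5g3 was below every control value, at 196.9 to 207.9 against 209.6 to 216.4 CPM. Atp5l, subunit g of the membrane part, had the highest value of the complex, 0.22 (SE 0.14, edgeR adjusted p = 0.387), and Atp5s, coupling factor B, had −0.07.

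The sex of the libraries bears on the X-linked members, which are Ndufa1, Ndufb11 and Cox7b. Ndufa1 had 53.9, 54.6 and 40.8 CPM in the libraries labelled knockout, 60.4 and 44.3 CPM in the male controls and 53.6 CPM in the female control. Ndufb11 had 122, 124 and 117 CPM against 127 and 102 CPM in the male and 107 CPM in the female control. Cox7b had 109, 108 and 92.2 CPM against 112, 96.6 and 104 CPM. In all 3 genes the female control lay between the male controls. This was common among the 87 tested members, where control 2 was the lowest control in 10 and the highest in 20. With sex as a term no member was called, and the median log2 fold change of the members was −0.01; that fit called 43 symbols in all (0.314%).

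The extreme values of the members were mostly those of 2 control libraries. Control 1 was the highest of the 6 libraries in 39 of the 87 members and control 3 the lowest in 46, and both are male. The median of log2 CPM minus each gene's mean over the libraries was 0.07 in control 1 and −0.10 in control 3. The spread was wider in the 53 members with transcripts under 1000 nucleotides (0.10 and −0.14) than in the 34 longer ones (0.05 and −0.02), and over all 1468 tested symbols of such short transcripts it was 0.05 and −0.03. Cytosolic ribosomal protein genes, short transcripts too, deviated by 0.06 and 0.02 in these libraries and by −0.18 in knockout 3. The part of library quality in these differences was not tested.

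In 6 lists of genes around the chain, 1 gene passed the edgeR test, Rpl22l1. DESeq2 called it together with Adck4 and Gabpb1, and limma-voom called it alone. Over all symbols tested, the shares called were 8.42% (edgeR), 11.7% (DESeq2) and 8.06% (limma-voom). An edgeR unadjusted p under 0.05 was found in 24.9% of all symbols. Of 41 other assembly factors 0 passed and 0 had an unadjusted p under 0.05; their median log2 fold change was −0.02, and Pet117, a complex IV assembly factor, had the smallest p (8.2 ± 1.1 against 10.2 ± 0.87 CPM, adjusted p = 0.251). A further list held 26 genes of electron carriers, ubiquinone synthesis and chain genes outside the symbol rule, such as Atpif1. Of these 26 genes 0 passed, with 3 higher and 1 lower at an unadjusted p under 0.05 and a median of −0.03. Adck4, a ubiquinone synthesis factor now called Coq8b, had 31.4 ± 1.0 against 24.0 ± 3.4 CPM (edgeR log2 fold change 0.38, adjusted p = 0.0732), and with sex as a term the value was 0.18 (adjusted p = 0.618). Of 17 citric acid cycle and pyruvate dehydrogenase genes 0 passed, with 4 lower at an unadjusted p under 0.05 and a median of −0.03. Idh3g, a regulatory subunit of isocitrate dehydrogenase, had 191.6 ± 3.3 against 220.7 ± 11.4 CPM (edgeR log2 fold change −0.20, adjusted p = 0.0775), and −0.14 with sex as a term (adjusted p = 0.584).

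Among 19 regulators of mitochondrial biogenesis 0 passed the edgeR test, and their median log2 fold change was −0.04. At an unadjusted p under 0.05, 1 was higher and 4 lower, against 24.9% of all symbols. Gabpb1, the partner of the ETS factor GABPA, had 83.2, 75.4 and 71.0 CPM in the libraries labelled knockout and 100.7, 85.9 and 113.2 CPM in controls. The groups did not overlap (edgeR log2 fold change −0.38 with SE 0.11, adjusted p = 0.0623), and with sex as a term the value was −0.17 (adjusted p = 0.641). Of 77 mitochondrial ribosomal protein genes 0 passed, with 3 higher and 1 lower at an unadjusted p under 0.05 and a median of 0.00; the smallest p was that of Mrpl51 (58.2 ± 3.7 against 47.7 ± 4.6 CPM, edgeR log2 fold change 0.28, adjusted p = 0.0865), and with sex as a term its log2 fold change was 0.14 (adjusted p = 0.671). Of 84 cytosolic ribosomal protein genes, 14 had a log2 fold change above 0 and 70 below, with a median of −0.04. With sex as a term the median was −0.01. In the edgeR test 1 gene was lower and none higher. That gene was Rpl22l1, a paralogue of Rpl22, at 94.8 ± 4.4 against 115.8 ± 7.1 CPM (edgeR log2 fold change −0.29 with SE 0.07, adjusted p = 0.0407), and with sex as a term it did not pass (adjusted p = 0.465).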

How the data were processed

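Poly(A) RNA of the 6 libraries was sequenced with a strand-specific kit, per the labels' protocols. The authors deposited raw, unnormalized counts, 1 whole number for each gene symbol and library. The submitters' processing notes name STAR and mm10. For the counting program, its gene models and its use of strand, details were not given in the sources used here.

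edgeR 4.0.16 in R 4.3.3 was run on all symbols (filterByExpr, minimum count 10 and minimum total 15; TMM scaling; quasi-likelihood F test, two-sided, with the label as sole term), and p-values were adjusted by Benjamini-Hochberg over the 13679 symbols tested. CPM values were computed from the deposited counts. Positions and transcript lengths came from GENCODE M21 (mm10), with the lower median length of the principal coding transcripts, and promoter windows from RefSeq (GRCm38.p6). Near-identical copies are alignments of at least 100 bases.

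The members and lists were chosen with earlier results of these data known. Named were, in each class, the genes with the smallest p in each direction and the highest and lowest level, the complex II genes, isoform groups and X-linked genes, and of each other list up to 3 called genes or else the one with the smallest p; other genes were picked with their values in view. Alternatives were DESeq2 size factors or upper-quartile scaling, no filter, a filter keeping symbols with 1 CPM or more in 3 libraries or more, limma-voom (limma 3.58.1), DESeq2 1.42.0, a replicate block, a sex term read from Xist and Y-linked genes, and each library left out in turn. Values of some members are not reported individually here. Scripts were tested on simulated data.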

Additional observations from a re-analysis of the deposited data

How the results depend on the processing

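Against 0 members called in the edgeR fit with the label alone, the fit with no filter on low counts called 2 (Cox6a2 and Ndufaf7), DESeq2 2 (the same genes), limma-voom 1 (Ndufaf7) and the replicate block 3 (Cox6a2 and Cox6b2 lower, Ndufaf7 higher). The fit with no filter tested 19971 symbols and called 1584 of them. Leaving out 1 library called 0 to 1 members; the 1 was Cox6a2 without control 3. The other scalings, the stricter filter and the sex term called 0. Over all genes, 1152 calls became 2172 with the replicate block (15.9% of symbols) and 43 with the sex term (7 higher, 36 lower), and 290 to 984 with 1 library left out, the fewest without knockout 2; calls were 530 without knockout 1, 508 without knockout 3, 473 without control 1 and 841 without control 3. The cause of these differences was not tested. Of 475 comparisons of the 34 tested named members with an alternative, 466 stayed on the same side of the threshold and 9 passed it (those of Cox6a2, Cox6b2 and Ndufaf7); a log2 fold change differed in sign in 29, all uncalled and at most 0.24 in size.

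Replicate numbers are not said to pair libraries. The correlation of deviations from the group means was 0.29, −0.005 and 0.34 for numbers 1 to 3. Knockouts 1 and 3 correlated best with the control of their own number, and knockout 2 did not. Members with few reads (Cox4i2, Ndufa4l2, Cox7a1, Cox6a2) allow only wide intervals, and a fit that separates sex from the label rests on 1 female control.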
